A study of Homo sapiens with 6 samples.

Results

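Potassium channel genes were examined in RNA-seq libraries of SCC25, an established human oral squamous cell carcinoma line labelled wild type, after 12 h under hypoxia or normoxia. They were taken as every protein-coding gene of the count table whose symbol starts with KCN, a family letter or letters and a number. This rule gave 70 of 21776 genes, of which 57 encode pore-forming subunits and 13 encode auxiliary subunits. Each condition had 3 libraries. The hypoxic cells were kept in 1% O2 and 5% CO2, with nitrogen making up the rest, and the normoxic cells in air with 5% CO2. All libraries come from 1 cell line, and the labels do not say whether the replicates were separate cultures, so p-values measure the spread between these libraries, which may be technical. A figure legend of the study names another oral squamous carcinoma line, SCC9, for this experiment, and the line is given here as labelled. The libraries hold 29637189 to 37278703 counts, and the potassium channel genes take 0.0308% to 0.0339% of them.

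Potassium channels let potassium ions leave the cell down their gradient and so hold the membrane potential negative. Voltage-gated channels open on depolarization, calcium-activated channels open when cytosolic calcium rises, 2-pore-domain channels carry a background leak, and inward rectifiers pass potassium near the resting potential. Auxiliary subunits form no pore themselves and alter the gating or the surface delivery of pore-forming partners. In epithelial cells these channels sustain the driving force for calcium entry, set cell volume and take part in salt secretion. A count of mRNA is not a measure of channel protein or of current.

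The labelled tissue and treatment were checked first. Of 10 squamous epithelial markers 9 passed the filter on low counts, and KRT14, a basal keratin, had at most 3 counts in every library. Of the 9, 5 rose and 3 fell, and their summed level was 2053 to 2204 CPM (counts scaled to the adjusted library total) under hypoxia and 917 to 1067 CPM under normoxia. The largest increases in CPM were those of ITGB4, from 301 to 1195, and CDH1, from 188 to 479. The 3 that fell were KRT6A (16.5 to 0.951 CPM), SFN (210 to 120 CPM) and KRT5 (126 to 111 CPM). TP63, the squamous lineage transcription factor, stood at 68.3 CPM under hypoxia and 62.7 CPM under normoxia. All 15 of a list of known hypoxia response genes rose, among them CA9, a carbonic anhydrase, from 42.4 to 277 CPM.

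A few genes made up most of the potassium channel mRNA in FPKM, the counts scaled to both library total and gene length. Summed over the 57 pore-forming genes, the level was 28.2 ± 0.732 FPKM (SD, n = 3) under normoxia and 38.4 ± 0.249 FPKM under hypoxia, and the libraries of the conditions did not overlap. KCNN4, KCNK1, KCNK5 and KCNK6 supplied 81.3% of this sum under normoxia and 78.8% under hypoxia. KCNN4 alone went from 26.2% to 37.4% of it. The summed level of the 13 auxiliary genes was 39.6 ± 2.34 FPKM under normoxia and 34.6 ± 0.323 FPKM under hypoxia, almost all of it from KCNAB2, the most abundant of the 70 genes. The order by FPKM over all libraries was KCNAB2, KCNN4, KCNK1, KCNK5, KCNK6 and KCNS3. Under hypoxia KCNN4 stood above KCNK1, and under normoxia their FPKM were close, at 7.39 ± 0.871 for KCNN4 and 8.18 ± 0.458 for KCNK1. In bulk RNA, more cells with a transcript and more transcript per cell cannot be told apart.

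**Figure D1:**
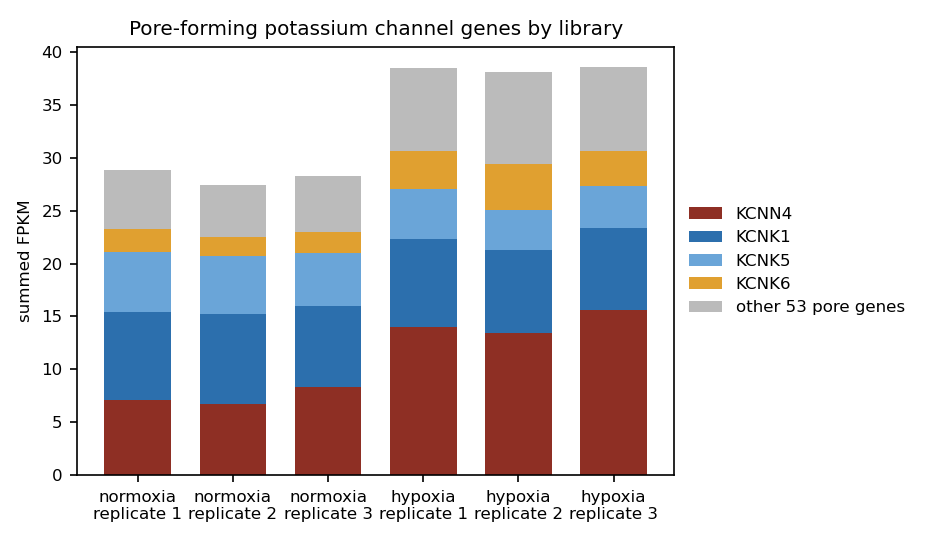
Summed FPKM of the pore-forming potassium channel genes in each of the 6 libraries (one stacked bar per library), split into KCNN4, KCNK1, KCNK5, KCNK6 and all other pore-forming genes. The hypoxia bars are taller, with a mean of 38.4 against 28.2 FPKM, and the KCNN4 segment grows most.

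Of the 70 genes 28 passed the filter on low counts and were tested by edgeR's quasi-likelihood test together with all 14255 genes that passed. At a Benjamini-Hochberg adjusted p under 0.05, 14 of the 28 were higher under hypoxia (50%) and 6 were lower (21.4%). Over all tested genes 39.2% were higher and 38.5% were lower. With a log2-fold change of at least 1 as well, 10 of the 28 were higher (35.7%) and 2 were lower (7.14%), beside 19.9% and 10.5% of all tested genes. The values of the conditions did not overlap for 14 higher and 7 lower of the 28, and for 80.5% of all tested genes in either direction. The median log2-fold change was 0.65 over the 28 and 0.02 over all tested genes. When genes that passed the filter through 1 condition alone were left out, it was 0.15 over 22 potassium channel genes. Over the 13602 genes of the table left in the same way it was -0.02. These 28 are not all the potassium channel genes, since 42 had too few counts.

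Most potassium channel genes were rare, and rare genes rose more often than abundant ones over the whole table. Of the 28 tested genes 22 had a mean under 5 CPM, and 10 of these 22 were higher by a log2-fold change of at least 1 (45.5%), beside 46.4% of the 3734 tested genes under 5 CPM. In the same range 2 of the 22 were lower by that size (9.09%), beside 6.24% of all such genes. None of the 6 potassium channel genes at 5 CPM or more passed a log2-fold change of 1, beside 10.5% higher and 12% lower by that size among all 10521 genes at that level. The share of large increases among rare potassium channel genes was therefore close to that of all tested genes at their level. Every hypoxia library also held more genes with at least 1 count, 18766 to 18996, than any normoxia library, 17128 to 17505, and the part of this in the increases of rare genes was not tested.

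**Figure D2:**
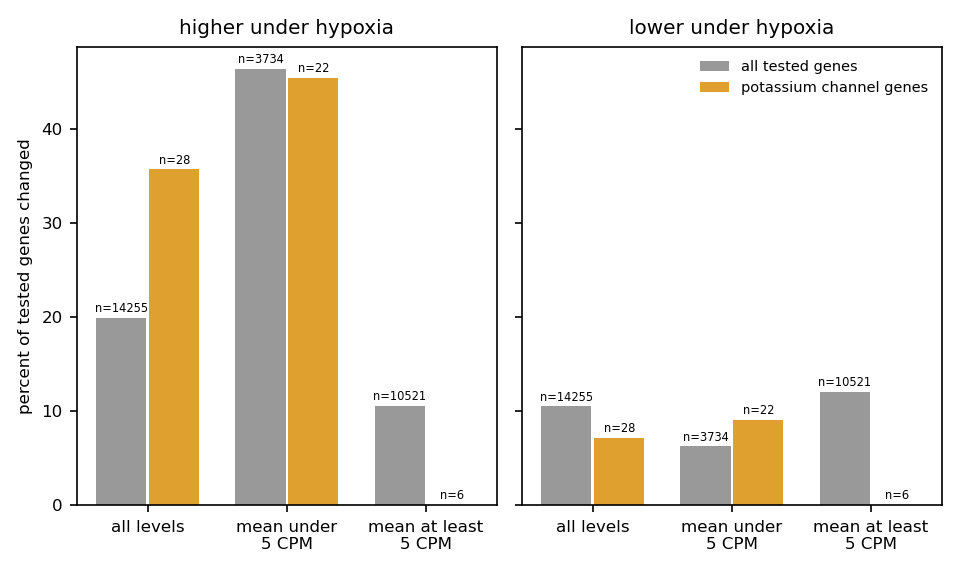
Percent of tested genes changed (adjusted p under 0.05 and a log2-fold change of at least 1 in size), higher in the left panel and lower in the right, for all tested genes (grey) and for potassium channel genes (orange) at all levels, under 5 CPM and at 5 CPM or more, with n above each bar. Under 5 CPM the higher shares are 46.4% and 45.5%.

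The filter asks for enough counts in 3 libraries, so a gene can pass through 1 condition alone. Through the hypoxia libraries only passed 5 genes, among them KCND1, KCNK3, KCNN1 and KCNQ1, and KCNJ2 passed through the normoxia libraries only, and for these a difference was built into passing. Among the other 22, 9 were higher (40.9%), 5 were lower (22.7%) and 8 were not called, beside 36.8% higher and 40.1% lower among the 13602 genes of the table that passed in the same way. By a log2-fold change of at least 1, 5 of the 22 were higher (22.7%) and 1 was lower (4.55%). The shares among the 13602 genes were 16.5% and 10.7%.

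Among the calcium-activated channels, KCNN4 and KCNN1 rose and KCNN3 fell. KCNN4 encodes the intermediate-conductance channel, which senses calcium through bound calmodulin. KCNN4 measured 43.2, 40.8 and 48.4 CPM in hypoxia replicates 1 to 3 and 22.3, 21.6 and 26.5 CPM in normoxia replicates 1 to 3. Every hypoxia library lay above every normoxia library, and the log2-fold change was 0.91 (SE 0.087, adjusted p = 3.29e-08). KCNN4 combined a high level with a change far larger than the spread between libraries. KCNN1, a small-conductance channel best known from neurons, had 23, 25 and 41 counts under hypoxia and 0, 0 and 1 under normoxia. Scaled to library size, the ratio of the summed counts was 84.8, with a 95% counting interval from 14.8 to 3385 (adjusted p = 2.81e-06). KCNN1 was thus close to undetected under normoxia, and its size of change is known only within that wide interval. KCNN1 also passed the filter through the hypoxia libraries only, so a difference was built into passing. KCNN3, another small-conductance channel, measured 0.229, 0.914 and 0.277 CPM under hypoxia and 0.967, 1.4 and 1.25 CPM under normoxia. Its log2-fold change was -1.29 (SE 0.45, adjusted p = 0.0157). Hypoxia replicate 2 lay close to the normoxia libraries, and KCNN3 was no longer called without hypoxia replicate 1 (-0.99, adjusted p = 0.0752) or hypoxia replicate 3 (-1.03, adjusted p = 0.074). Without hypoxia replicate 2 its log2-fold change was -2.23 (adjusted p = 0.000789).

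The large-conductance calcium-activated channel was represented mainly by its auxiliary subunits. Its pore gene KCNMA1 had 1, 1 and 2 counts under hypoxia and 7, 2 and 1 under normoxia, too few for a test. KCNMB4, which encodes a beta subunit of that channel, measured 2.1, 3.23 and 3.3 CPM under hypoxia and 0.699, 0.804 and 0.642 CPM under normoxia, a log2-fold change of 2.01 (SE 0.29, adjusted p = 6.23e-06). KCNMB3, the other beta subunit gene in the table, measured 1.77, 2.5 and 2.28 CPM under hypoxia and 1.02, 0.524 and 1.96 CPM under normoxia. Normoxia replicate 3 lay inside the hypoxia range, and the log2-fold change was 0.91 (SE 0.36, adjusted p = 0.0281). KCNMB3 lost its call without hypoxia replicate 2 (0.79, adjusted p = 0.11), hypoxia replicate 3 (0.87, adjusted p = 0.0762), normoxia replicate 1 (0.80, adjusted p = 0.0872) or normoxia replicate 2 (0.57, adjusted p = 0.117). In GENCODE v29 it also shares 3403 exon bases with PIK3CA on the opposite strand. PIK3CA was the more abundant of the pair in reads, at 26.1 CPM under hypoxia and 21 CPM under normoxia, and whether counting used the strand is not given in the sources used here.

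**Figure D3:**
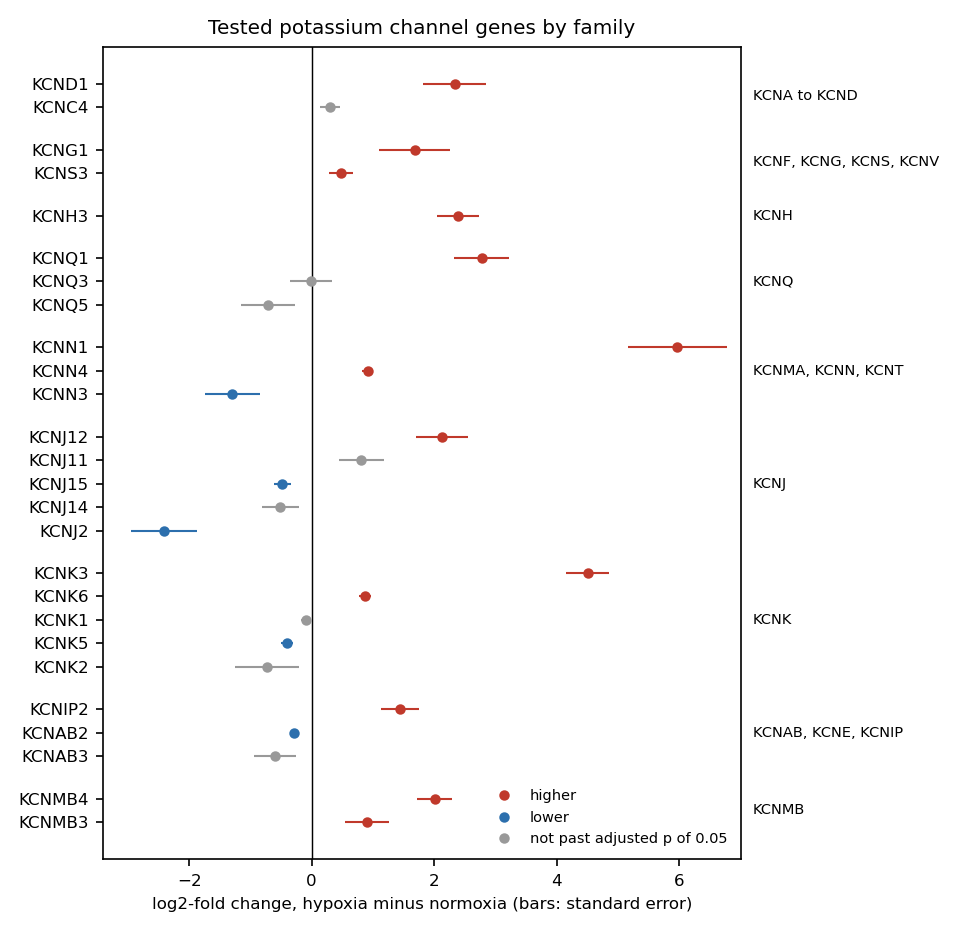
Log2-fold change (hypoxia minus normoxia, x axis) of tested potassium channel genes, grouped by family, with the standard error as bars; red marks higher, blue lower and grey not called. The value of KCNN1 rests on 1 normoxia count and depends on the prior count of the fit.

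The 2-pore-domain genes held most of the remaining pore mRNA and moved in both directions. KCNK3 encodes TASK-1, a leak channel closed by extracellular acid. KCNK3 measured 3.73, 3.9 and 4.07 CPM under hypoxia and 0.107, 0.105 and 0.304 CPM under normoxia, a log2-fold change of 4.50 (SE 0.35, adjusted p = 2.68e-09). The hypoxia libraries were tight, at 0.632 ± 0.0263 FPKM, and the normoxia libraries held 3 to 9 counts each, near the limit of counting. KCNK3 passed the filter through the hypoxia libraries only. A difference was thus built into passing, and its adjusted p is no independent support. KCNK6 (TWIK-2) measured 24.7, 29.4 and 23.1 CPM under hypoxia and 15, 13.1 and 14.1 CPM under normoxia, a log2-fold change of 0.87 (SE 0.10, adjusted p = 4.45e-07). KCNK5 encodes TASK-2, a leak channel opened by alkaline pH that takes part in volume regulation of epithelial cells. KCNK5 measured 17.8, 14.1 and 15.2 CPM under hypoxia and 21.6, 21.5 and 19.1 CPM under normoxia, a log2-fold change of -0.41 (SE 0.10, adjusted p = 0.00145). For both genes the conditions did not overlap, and they moved in opposite directions by less than a log2-fold change of 1. KCNK1 (TWIK-1) measured 22.6, 20.8 and 21.1 CPM under hypoxia and 22.9, 24.4 and 21.4 CPM under normoxia, and its log2-fold change of -0.09 (SE 0.083, adjusted p = 0.333) did not pass. KCNK2, the mechanosensitive TREK-1, stayed under 1 CPM in every library and was not called (-0.73, SE 0.52, adjusted p = 0.206).

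Upstream windows are shown for KCNN4 and KCNK6, the abundant genes that rose, and for KCNK3, with the highest fold change among the 2-pore-domain genes. Each is the 250 bases before the gene start from RefSeq (GRCh38.p14), read 5′ to 3′ on the strand of the gene. Capitals mark ACGTG or GCGTG on either strand, the core letters of the hypoxia response element bound by HIF.
KCNN4 (minus strand, chr19:43780974-43781223): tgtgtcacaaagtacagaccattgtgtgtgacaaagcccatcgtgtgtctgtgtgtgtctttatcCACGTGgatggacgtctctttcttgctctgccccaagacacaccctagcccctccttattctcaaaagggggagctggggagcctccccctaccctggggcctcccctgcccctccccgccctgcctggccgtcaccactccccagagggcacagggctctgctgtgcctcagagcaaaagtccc
KCNK6 (plus strand, chr19:38319595-38319844): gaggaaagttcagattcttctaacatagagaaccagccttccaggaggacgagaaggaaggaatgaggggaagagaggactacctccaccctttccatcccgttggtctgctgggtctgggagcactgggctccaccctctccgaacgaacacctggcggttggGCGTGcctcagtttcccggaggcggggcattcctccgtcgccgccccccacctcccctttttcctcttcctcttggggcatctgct
KCNK3 (plus strand, chr2:26692472-26692721): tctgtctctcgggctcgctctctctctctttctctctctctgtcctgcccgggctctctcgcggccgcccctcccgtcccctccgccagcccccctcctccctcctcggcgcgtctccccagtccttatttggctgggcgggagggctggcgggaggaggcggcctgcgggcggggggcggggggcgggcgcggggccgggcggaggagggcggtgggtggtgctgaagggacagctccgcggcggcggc
In the KCNN4 window the overlapping matches on both strands start 185 and 184 bases before the gene start, and the KCNK6 match starts 86 bases before it. The KCNK3 window holds no match. Windows were found for 51 of the 70 genes, and 21 of them hold at least 1 match (41.2%), beside 43.2% of 35116 windows of the same length over all genes. Of the tested genes with a window, 3 of the 8 called higher and 3 of the 5 called lower hold a match, and none of the 4 higher by a log2-fold change of at least 1 does. The letters were thus about as common before these genes as before genes at large, and a match is not evidence of binding.

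Voltage-gated genes were rare, and KCND1, KCNH3, KCNQ1, KCNG1 and KCNS3 were called higher. KCND1 (Kv4.1), an A-type channel, measured 0.819, 0.753 and 0.863 CPM under hypoxia and 0.107, 0.0699 and 0.304 CPM under normoxia, a log2-fold change of 2.33 (SE 0.51, adjusted p = 0.00048). KCND1 passed the filter through the hypoxia libraries only, so a difference was built into passing. KCNC4 (Kv3.4) measured 5.14, 5.16 and 4.5 CPM under hypoxia and 3.9, 3.88 and 4.29 CPM under normoxia. Although these values did not overlap, KCNC4 was not called (log2-fold change 0.30, SE 0.16, adjusted p = 0.0993), and it passed only when at least 10 counts in every library were required (0.37, adjusted p = 0.0399).

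KCNH3 (Kv12.2), of the ether-a-go-go family, measured 2.29, 2.04 and 2.71 CPM under hypoxia and 0.591, 0.245 and 0.473 CPM under normoxia, a log2-fold change of 2.39 (SE 0.34, adjusted p = 5.23e-06). KCNQ1 (Kv7.1), which together with KCNE subunits carries potassium currents of heart and secretory epithelia, measured 1.38, 0.914 and 1.02 CPM under hypoxia and 0.161, 0.175 and 0.135 CPM under normoxia. Its log2-fold change was 2.77 (SE 0.45, adjusted p = 2.18e-05). KCNQ1 passed the filter through the hypoxia libraries only, so here too a difference was built into passing. The antisense RNA KCNQ1OT1, which shares 121 exon bases with KCNQ1 on the opposite strand, rose as well, by a log2-fold change of 1.37, and reads of the pair in the shared bases cannot be told apart without strand. KCNQ3 (0.00, SE 0.34, adjusted p = 0.993) and KCNQ5 (-0.71, SE 0.44, adjusted p = 0.15) were not called.

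KCNG1 and KCNS3 encode silent subunits, which form no channel alone and modify the KCNB channels they join. KCNS3 measured 4.26, 5.73 and 4.9 CPM under hypoxia and 4.19, 2.73 and 3.72 CPM under normoxia, a log2-fold change of 0.48 (SE 0.19, adjusted p = 0.029). Its call was lost without hypoxia replicate 2 (0.36, adjusted p = 0.147), hypoxia replicate 3 (0.49, adjusted p = 0.0611) or normoxia replicate 2 (0.32, adjusted p = 0.138). KCNG1 measured 0.59, 1.21 and 0.401 CPM under hypoxia and 0.296, 0.349 and 0.0338 CPM under normoxia, a log2-fold change of 1.68 (SE 0.58, adjusted p = 0.0143). It was not called without hypoxia replicate 2 (1.09, adjusted p = 0.151) or normoxia replicate 3 (1.19, adjusted p = 0.0542). Neither increase therefore held with every library left out in turn. KCNB2, a pore gene that these subunits join, had at most 1 count in any library.

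**Figure D4:**
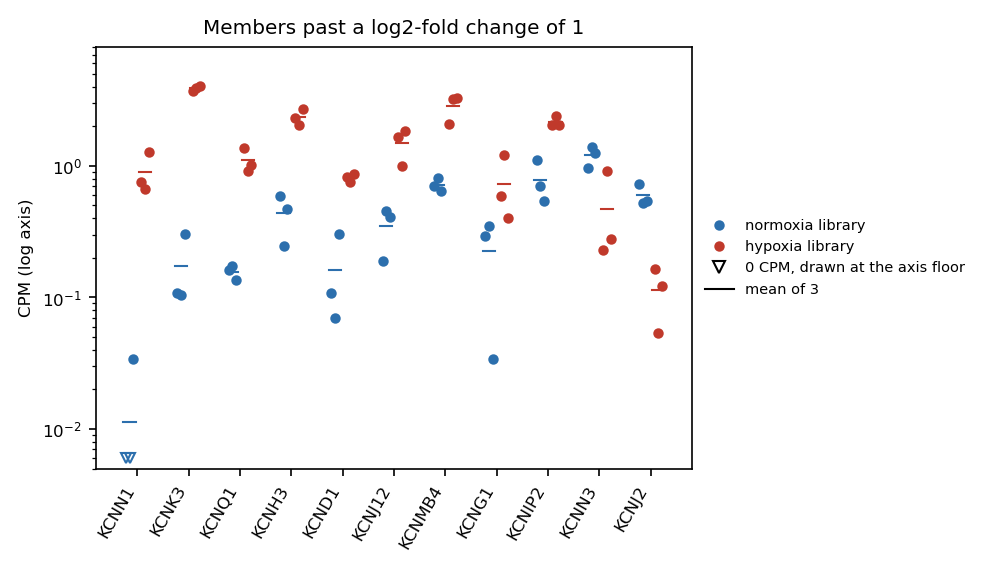
CPM on a log axis in each library (points, hypoxia red and normoxia blue, bars at the mean of 3) of potassium channel genes with an adjusted p under 0.05, a log2-fold change of at least 1 in size and at least 0.5 CPM in the higher condition. All lie under 5 CPM, and KCNN1 is at 0 in 2 normoxia libraries, drawn at the axis floor. The conditions do not overlap for any of these genes, which were selected on the same values, nor for 80.5% of all tested genes.

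Inward rectifiers split, with KCNJ12 higher and KCNJ2 and KCNJ15 lower. KCNJ2 (Kir2.1), a channel that holds the resting potential, measured 0.164, 0.0538 and 0.123 CPM under hypoxia and 0.726, 0.524 and 0.541 CPM under normoxia, a log2-fold change of -2.40 (SE 0.54, adjusted p = 0.000615). KCNJ12 (Kir2.2), of the same subfamily, measured 1.67, 0.995 and 1.85 CPM under hypoxia and 0.188, 0.454 and 0.406 CPM under normoxia, a log2-fold change of 2.12 (SE 0.42, adjusted p = 0.000189). The pair moved in opposite directions, both at levels under 2 CPM. KCNJ2 passed the filter through the normoxia libraries only, so for it a lower value under hypoxia was built into passing. KCNJ12 has a near-identical copy, KCNJ18, which had 0 to 2 counts per library, and how reads shared by the copies were assigned is not given in the sources used here. KCNJ15 (Kir4.2), the most abundant inward rectifier by FPKM, measured 8.09, 7.04 and 8.07 CPM under hypoxia and 10.1, 9.23 and 13 CPM under normoxia, a log2-fold change of -0.48 (SE 0.14, adjusted p = 0.00408). KCNJ11 (Kir6.2), the pore of ATP-sensitive channels, narrowly missed the threshold (0.81, SE 0.36, adjusted p = 0.0504). It passed with DESeq2's size factors (adjusted p = 0.0495), with at least 10 counts in every library (0.89, adjusted p = 0.0189) and without normoxia replicate 2 (1.20, adjusted p = 0.0123). KCNJ14 was not called (-0.51, SE 0.30, adjusted p = 0.135). KCNJ14 shares 350 exon bases on the same strand with GRWD1, a far more abundant gene that fell by 2.18 on the log2 scale. Summed over the 13 inward rectifiers, the level was 1.86 ± 0.0713 FPKM under hypoxia and 1.78 ± 0.0992 FPKM under normoxia, and the libraries overlapped.

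Auxiliary subunits of voltage-gated channels were led by KCNAB2. It encodes Kv beta 2, which resembles aldo-keto reductases and binds KCNA channels. KCNAB2 measured 172, 168 and 171 CPM under hypoxia and 211, 222 and 194 CPM under normoxia, a log2-fold change of -0.29 (SE 0.056, adjusted p = 0.000142). The decrease was small, with no overlap between conditions. Of the KCNA genes themselves, KCNA2, KCNA7 and KCNA10 each had at most 1 count in any library. KCNIP2 encodes a calcium-binding partner of KCND channels. KCNIP2 measured 2.03, 2.39 and 2.03 CPM under hypoxia and 1.1, 0.699 and 0.541 CPM under normoxia, a log2-fold change of 1.44 (SE 0.31, adjusted p = 0.00041). KCNAB3 was not called (-0.60, SE 0.34, adjusted p = 0.12), and was called lower without normoxia replicate 3 (-0.79, adjusted p = 0.049). Its change was smaller without normoxia replicate 1 (-0.32, adjusted p = 0.479) or hypoxia replicate 3 (-0.35, adjusted p = 0.388).

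The 42 genes that were not tested had 1 to 63 counts in all 6 libraries together and at most 23 in any one. Hypoxia replicate 2, the deepest hypoxia library, held the highest count for 17 of them. KCNJ5 (Kir3.4), a G protein-gated rectifier, had 9, 7 and 16 counts under hypoxia and 0 in every normoxia library, which is at least 10.2-fold higher when the normoxia group is set to a floor of 3 counts in all. Its neighbour KCNJ5-AS1, a non-coding RNA, rose by a log2-fold change of 1.66. KCNJ10 (Kir4.1), the glial rectifier, had 4, 7 and 5 counts under hypoxia and 0 under normoxia, at least 5.08-fold higher by the same floor. KCNT2, a sodium-activated channel, had 5, 23 and 7 counts under hypoxia and 0, 1 and 2 under normoxia, a ratio of 11.1 with a 95% counting interval from 3.5 to 56.5. These 3 genes, named after their values were seen, were called higher when no filter was applied, which is no independent support. That setting called 23 of the 70 genes and 11920 of all 21776. KCNH2 (hERG), long studied in tumour cells, had 10, 12 and 7 counts under hypoxia and 9, 3 and 3 under normoxia. KCNE3, a partner of KCNQ1 in epithelia, had 2, 14 and 4 counts under hypoxia and 7, 0 and 1 under normoxia. Such counts do not resolve a difference at this depth.

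The other untested genes included KCNA2, KCNA7, KCNA10, KCNAB1, KCNB2, KCND2, KCND3, KCNE1, KCNE4, KCNE5, KCNF1, KCNG2, KCNG3, KCNH1, KCNH4, KCNH6, KCNH7, KCNH8, KCNIP1, KCNIP3, KCNIP4, KCNJ1, KCNJ4, KCNJ6, KCNJ9, KCNJ16, KCNJ18, KCNK4, KCNK7, KCNK9, KCNK12, KCNK13, KCNK15, KCNMA1, KCNT1 and KCNV1. Of all 70 genes, 20 had at most 3 counts in every library. At most 3 counts in every library of the condition were found for 33 genes under normoxia and for 23 under hypoxia. The share of all genes at that floor was not counted. Over the whole table, hypoxia libraries held more genes with at least 1 count, 18766 to 18996 against 17128 to 17505. The contrast is therefore not read as particular to potassium channel genes.

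The FPKM of the abundant genes were tested as well. When log2(FPKM + 1) was tested with limma, leaving out genes whose mean was under 1 FPKM, 5 of 6 potassium channel genes passed an adjusted p of 0.05, beside 80.9% of 10976 genes. KCNN4, KCNK6 and KCNS3 were higher and KCNAB2 and KCNK5 were lower, as by edgeR. KCNK1, at 7.94 ± 0.32 FPKM under hypoxia, was not called (adjusted p = 0.588).

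Genes that work beside potassium channels were described from 7 lists of 73 genes, of which 45 were tested. Of these, 11 rose (24.4%), 27 fell (60%) and 7 were not called, beside the 39.2% and 38.5% of all tested genes. Most of the 45 had a mean of at least 5 CPM, and of all genes at that level 33.8% were higher and 48.5% lower. A log2-fold change of at least 1 was reached by 6 that rose (13.3%) and 5 that fell (11.1%). Over all tested genes these shares were 19.9% and 10.5%, and over genes at 5 CPM or more 10.5% and 12%.

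Calcium entry and sensing was the list with the largest single increase. Of its 11 genes 2 rose (18.2%) and 7 fell (63.6%), beside 39.2% and 38.5% of all tested genes. ORAI3 encodes a plasma membrane calcium channel that opens when stores are emptied. ORAI3 measured 42.6, 45.5 and 43.6 CPM under hypoxia and 4.97, 5.24 and 8.52 CPM under normoxia, a log2-fold change of 2.82 (SE 0.14, adjusted p = 5.45e-12). ORAI1, the main store-operated channel of many cells, measured 8.52, 8.71 and 9.55 CPM under hypoxia and 24.2, 21.4 and 22.4 CPM under normoxia, a log2-fold change of -1.35 (SE 0.098, adjusted p = 9.34e-10). By FPKM, ORAI1 stood above ORAI3 under normoxia, at 14.9 against 2.79, and below it under hypoxia, at 6.05 against 20.2. STIM2, a sensor of store calcium, fell by 0.74 on the log2 scale. CALM3, a calmodulin gene and the most abundant of the list by FPKM, fell by 0.40 on the log2 scale.

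Of 9 tested genes of volume-regulated and chloride channels, 7 were lower (77.8%) and 1 was higher (11.1%). Of all tested genes 38.5% were lower and 39.2% higher, and of those at 5 CPM or more 48.5% and 33.8%. The LRRC8 proteins form the volume-regulated anion channel, which opens with potassium channels when swollen cells shrink back. All 5 LRRC8 genes were lower, from -0.27 for LRRC8E to -1.74 for LRRC8B (SE 0.11, adjusted p = 1.56e-10), and LRRC8D fell by 1.22 on the log2 scale. CLCN2, a chloride channel, fell by 1.41 on the log2 scale. ANO6, a calcium-activated scramblase and channel, rose from 110, 105 and 108 CPM under normoxia to 219, 217 and 213 CPM under hypoxia, a log2-fold change of 1.01 (SE 0.051, adjusted p = 9.37e-12).

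The sodium-potassium pump, which builds the potassium gradient, showed a shift among its beta and FXYD subunits. Of 5 tested genes 2 rose (40%) and 3 fell (60%), beside 39.2% and 38.5% of all tested genes. ATP1B1 rose by a log2-fold change of 0.71 and ATP1B3 fell by 0.88 on the log2 scale. FXYD3, a small regulator of the pump, measured 138, 136 and 151 CPM under hypoxia and 44.8, 44.7 and 59.9 CPM under normoxia, a log2-fold change of 1.51 (SE 0.089, adjusted p = 6.16e-11). FXYD5, the most abundant of the list by FPKM, fell by 0.23 on the log2 scale.

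Among cation-chloride cotransporters 2 of 6 tested genes rose (33.3%) and 3 fell (50%), beside 39.2% and 38.5% of all tested genes. SLC12A2 (NKCC1), which imports sodium, potassium and chloride together, fell by 0.80 on the log2 scale (SE 0.082, adjusted p = 8.49e-08). SLC12A8 fell by 0.74 on the log2 scale. SLC12A9, the most abundant of the list by FPKM, was barely past the threshold (-0.15, adjusted p = 0.0466) and missed it under several other settings.

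Other potassium-permeable channels gave 3 higher (50%) and 2 lower (33.3%) of 6 tested, beside 39.2% and 38.5% of all tested genes. HCN3, a cation channel opened by hyperpolarization, measured 12.8, 13.6 and 12.8 CPM under hypoxia and 3.36, 1.99 and 3.41 CPM under normoxia, a log2-fold change of 2.15 (SE 0.16, adjusted p = 1.83e-09). TMEM38B, a cation channel of the endoplasmic reticulum, fell by 0.69 on the log2 scale, and CCDC51, a subunit of the mitochondrial potassium channel, fell by 0.77 on the log2 scale. Of the regulators 1 of 6 tested genes rose (16.7%) and 5 fell (83.3%), beside the same shares of all tested genes. SGK1, a kinase that raises the surface level of several channels, measured 1.6, 1.99 and 1.82 CPM under hypoxia and 9.54, 10.3 and 11.6 CPM under normoxia, a log2-fold change of -2.53 (SE 0.16, adjusted p = 1.48e-10). NEDD4L, a ubiquitin ligase that removes channels from the surface, fell by 0.55 on the log2 scale. The kinase genes WNK4 and OXSR1 changed by 0.97 and -0.19. The remaining list, of other channel subunits, had LRRC26 (-0.22, adjusted p = 0.374) and AMIGO1 (-0.13, adjusted p = 0.46) as its tested genes, and neither was called.

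**Figure D5:**
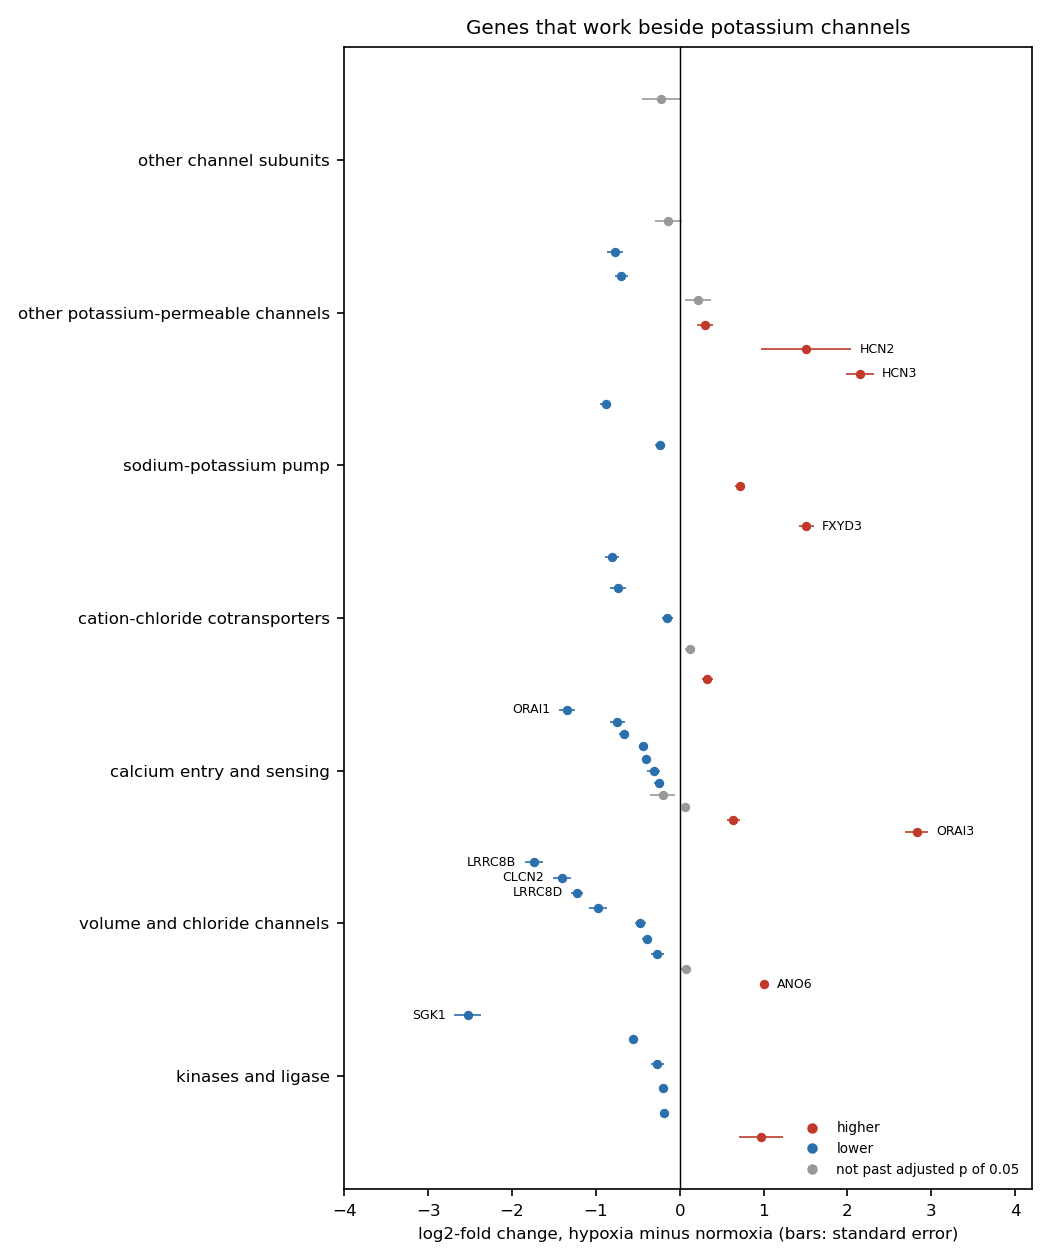
Log2-fold change (hypoxia minus normoxia, x axis) of tested genes of the 7 partner lists, 1 point per gene with its standard error, in red where higher, blue where lower and grey where not called. Names mark genes with a log2-fold change of at least 1 in size; ORAI3 is highest at 2.82 and SGK1 lowest at -2.53.

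Markers of other cell types were low or came from single genes, and several moved with hypoxia in the direction of the rare potassium channel genes that rose. Several of the rare genes that rose are best known from nerve and muscle. Of the 5 neuronal markers, RBFOX3, SNAP25, STMN2 and ELAVL4 had no entry in the count table. SYT1, the remaining marker, measured 10.4 CPM under hypoxia and 5.53 CPM under normoxia, an increase of 0.91 on the log2 scale. The summed muscle markers reached at most 0.74 CPM under hypoxia and 2.76 CPM under normoxia, nearly all from RYR2, which fell. Fibroblast markers summed to 17.1 to 22.1 CPM under hypoxia and 3.15 to 5.64 CPM under normoxia, mostly COL1A1, and COL3A1 had at most 3 counts everywhere. Leukocyte markers summed to 33.6 to 39.6 CPM under hypoxia and 32.9 to 35.9 CPM under normoxia, mostly CD68, with PTPRC and CD3E at no more than 3 counts in every library. CD14, another leukocyte marker, rose from 1.07 to 5.83 CPM (log2-fold change 2.45, adjusted p = 7.27e-08). Endothelial markers summed to 1.32 to 1.7 CPM under hypoxia and 0.296 to 0.744 CPM under normoxia. Of these, CDH5 rose (log2-fold change 1.14, adjusted p = 0.025), VWF had 10, 9 and 4 counts under hypoxia and 0 under normoxia, and TEK had at most 3 counts in any library. The part of such transcripts in the changes of potassium channel genes was not tested.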

How the data were processed

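RNA of SCC25 cells was sequenced from 3 hypoxia and 3 normoxia libraries (SMARTER mRNA-Seq kit per the labels). The authors deposited whole-number counts of reads per gene, without normalization, and FPKM of the same genes. For all 70 potassium channel genes the FPKM followed from counts, gene length and library total within a relative error of 0.001. The submitters' processing notes name the mouse builds GRCm38 and mm10, whereas all 70 Entrez numbers carry the same human symbols in RefSeq. The aligner, the counter and the use of strand are not given in the sources used here.

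The test on counts was that of edgeR 4.0.16, run in R 4.3.3 (TMM, filterByExpr, quasi-likelihood F test, two-sided, condition as the only term) over 14255 genes, with Benjamini-Hochberg adjustment at 0.05. CPM values were computed from counts and TMM-adjusted totals. FPKM were tested with limma 3.58.1 on log2(FPKM + 1). DESeq2 1.42.0 was an alternative. On simulated counts for this comparison (14255 genes), edgeR recovered 85 of 87 genes changed by a log2 of 1 and 113 of 113 changed by a log2 of 2, with 8.33% of its calls false. The simulation gave every gene the same dispersion and changed far fewer genes than were called here. Only genes above a set mean count were changed, so recovery of the rarest potassium channel genes was not measured. Replicates differed beyond sampling noise (chi-square per gene 5.11 to 11.5), so each counted once. Intervals and floors (3 counts) cover counting error only.

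The genes given with values in every library were those past adjusted p 0.05, a log2-fold change of 1 and 0.5 CPM, the 6 highest by FPKM and the highest of each family. The other tested genes are given by fold change, and untested genes with their counts were chosen after their values were seen. In each partner list they were up to 3 called genes with the largest changes at 1 CPM or more, and the most abundant. Potassium channel genes and lists were chosen with earlier results of these data known. Exon overlaps came from GENCODE v29. The orientation of the KCNN4 and KCNK6 windows was checked against its transcripts, and that of KCNK3 was not. A few genes counted in the totals are not reported here by name or value.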

Additional observations from a re-analysis of the deposited data

How the results depend on the processing

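DESeq2's size factors, the DESeq2 Wald test and no filter on low counts left the number of potassium channel genes called higher at 14 to 17 and lower at 6, and the 20 genes called were kept in each. Requiring at least 10 counts in every library left 16 potassium channel genes to test, of which 8 were higher, against 14. With a log2-fold change of at least 1 as well, 2 were lower against 6, 4338 of all genes were called against 11090, and 11 partner genes against 38. Without a filter on FPKM, limma called 18 of the 70 against 5 of 6. Leaving out 1 library at a time gave 11 to 14 higher and 5 to 7 lower potassium channel genes, 10669 to 11390 of all genes, 36 to 38 partner genes and 4 to 5 by FPKM. Of the 28 tested potassium channel genes and 45 tested partner genes, only KCNQ3 changed sign. Its log2-fold change, -0.003 and not called, was 0.00086 with DESeq2's size factors, 0.0054 in the DESeq2 Wald test, 0.069 with at least 10 counts in every library, 0.036 with the replicate block and -0.17 to 0.30 with 1 library left out. SLC12A9 missed the threshold with DESeq2's size factors, the DESeq2 Wald test, at least 10 counts in every library and the replicate block. Same-numbered libraries did not deviate together (correlations 0.0175, -0.069 and 0.00122), so the numbers do not pair them, and with the replicate number as a block 14 and 6 potassium channel genes, 10875 of all genes and 37 partner genes were called. Depth limits the 42 untested genes, whose counts never exceeded 23. The causes of these shifts were not tested beyond the fewer genes that a stricter filter leaves.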
